A study of Mus musculus with 12 samples.

Results

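Submandibular glands (SMGs) of 3 wild-type male mice (WTM) were compared with SMGs of 3 wild-type female mice (WTF). These 6 libraries are part of a series of 12, and they were chosen by the genotype and sex recorded for each mouse. All wild-type mice were C57BL/6J animals aged 8 weeks from the Jackson Laboratory. The other 6 libraries came from 3 female (KOF) and 3 male (KOM) mice of the same age and the strain C57BL/6J-Pou2f3em1Cbwi/J, called knockout here. These mice lack Pou2f3, the transcription factor that defines tuft cells, in every tissue, and they serve below as a second male-female comparison. They also entered the count filter, the scaling and the estimate of spread behind the wild-type calls. The libraries were stranded and made from total RNA depleted of ribosomal RNA. The labels name the molecule as polyA RNA, and their extraction protocol speaks of cell pellets where the study describes gland tissue. Only autosomal genes are described, which were 17268 of the 17893 genes with enough counts to be tested.

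The mouse SMG is one of the most sexually dimorphic organs outside the reproductive tract. Its acini secrete mucins and other saliva proteins, and its ducts modify the salt content of the saliva. In males, androgens enlarge a segment of the duct, the granular convoluted tubule (GCT), whose cells store growth factors and serine proteases of the kallikrein 1-related family in dense granules and release them into saliva. In female mice the same cells are smaller and hold fewer granules. Thyroid hormone and glucocorticoids also act on this segment.

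The question was how far the wild-type glands of the 2 sexes differed in these programs. In 6 of 6 wild-type libraries the sex-chromosome genes followed the recorded sex. Total estimated counts ranged from 51615835 to 67881902 in the wild-type libraries. The 20 genes with the most counts over all 12 libraries took 76.8% to 79.3% of the counts in WTF and 51.8% to 60.7% in WTM. Levels are therefore given as normalised counts, that is, counts divided by a library size adjusted by the TMM method of edgeR and multiplied by the mean adjusted size. The TMM factors were 0.625 to 0.759 in WTF and 1.04 to 1.45 in WTM. Without them the median log2 fold change of all autosomal genes moved from 0.07 to 0.96, towards males, so every difference below is relative to the bulk of genes. A gene is called here when its adjusted p is under 0.05 (edgeR quasi-likelihood test, Benjamini-Hochberg), and a positive log2 fold change is a higher level in males.

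Single libraries stood apart in genes of other tissues. WTM replicate 3 held 427285 normalised counts of Muc19, a mucin of the sublingual gland, where the other 5 wild-type libraries held 150 to 10072. It was also the highest of the 6 for Amy1, Bpifa2 and the genes Dcpp1, Dcpp2 and Dcpp3, which are products of neighbouring salivary glands. The same was true of Smr3a, which is not assigned to another gland here. WTF replicate 1 was the highest for the macrophage genes Adgre1 (2510 against 370 and 517 in the other WTF libraries) and Lyz2. WTF replicate 3 was the highest for the fat cell genes Adipoq (393 against 15 and 27) and Ucp1. The part of these cells or tissues in the results was not tested, and values without single libraries are given beside the lists below.

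The sexes differed widely. Of the autosomal genes tested, 3558 were higher in males (20.6%) and 2718 were higher in females (15.7%) at an adjusted p under 0.05, 36.3% in all. This balance depended on the scaling, and the counts were 2996 and 3424 with upper-quartile factors and 11746 and 274 with library totals. With an absolute log2 fold change above 1 as well, 1543 genes were higher in males (8.94%) and 890 in females (5.15%). A difference above 16-fold was found for 143 genes in the male direction and for 29 in the female direction. With the 6 wild-type libraries alone the counts above a log2 fold change of 1 were 1312 and 875. In bulk tissue, fewer cells of a type and less RNA per cell cannot be told apart.

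GCT products held the clearest difference. All 17 members of this list were tested, 16 of them were higher in WTM and 1, Klk1, was higher in WTF, and none overlapped between the sexes. Among all autosomal genes, 26.8% did not overlap with males higher and 20.7% with females higher. The median log2 fold change of the list was 6.46, an 88.2-fold difference, beside 0.07 for all autosomal genes. Together the 17 genes took 15.2% ± 2.02 of the counts in WTM and 0.526% ± 0.132 in WTF (SD, n = 3).

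Egf (ENSMUSG00000028017.8, minus strand of chromosome 3, 129470410 to 129549093, GRCm39) encodes the precursor of epidermal growth factor. It had 19676, 34513 and 33563 normalised counts in the WTF libraries and 2031962, 3592413 and 2573098 in the WTM libraries. The highest female value was far below the lowest male value. The log2 fold change was 6.55 (SE 0.40, 93.4-fold, adjusted p = 1.4e-07, edgeR, Benjamini-Hochberg). Ren1, the gene of the protease renin, was a minor product in the same direction, with 28, 48 and 24 against 1504, 3157 and 1713 (log2 fold change 5.98, SE 0.42, adjusted p = 3.8e-07). WTM replicate 2 was the highest of the 3 males for both genes.

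**Figure D1:**
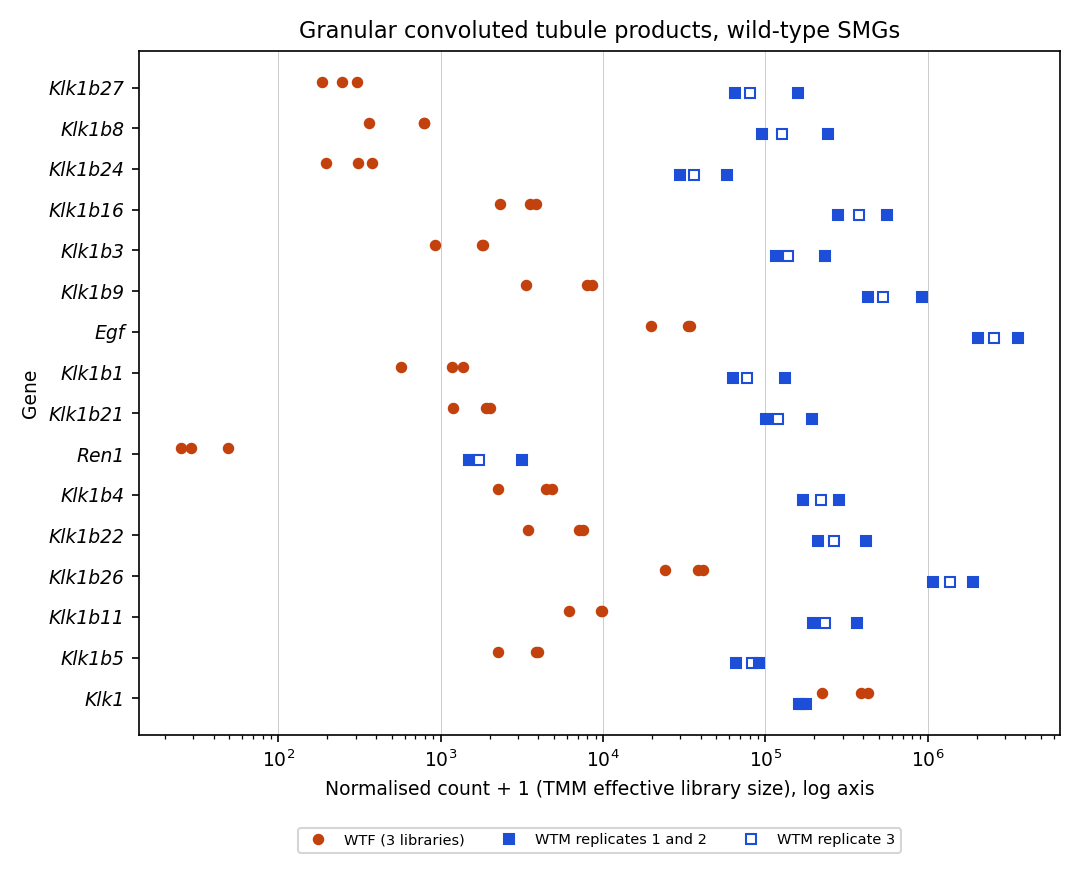
Normalised counts (plus 1, log axis) of 16 GCT products in the 3 WTF libraries (circles) and the 3 WTM libraries (squares, replicate 3 open). The 2 sexes do not overlap for any gene, and Klk1, in the bottom row, is the member with the females to the right.

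The kallikrein 1-related genes make up 14 members, which lie side by side on chromosome 7 between 43600088 (start of Klk1b8) and 43879048 (end of Klk1) in GRCm39. Klk1b26 (ENSMUSG00000053719.11, 43661592 to 43666392), a protease also known as prorenin-converting enzyme, had 23964, 41093 and 38239 normalised counts in WTF and 1076585, 1889472 and 1375251 in WTM. Its log2 fold change was 5.39 (SE 0.40, 42.0-fold, adjusted p = 6.3e-07). Klk1b27 had the largest difference of the list, with 185, 245 and 304 against 64678, 158731 and 80179 (log2 fold change 8.69, SE 0.57, adjusted p = 2.7e-07), and Klk1b8 followed with 7.91 (SE 0.64). Klk1b3 was higher in males by a log2 fold change of 6.74 (SE 0.49) and Klk1b4 by 5.86 (SE 0.41). The proteases known as epidermal growth factor-binding proteins include Klk1b22 and Klk1b9, which differed by 5.62 (SE 0.45) and 6.56 (SE 0.55). The smallest male excess of the cluster was that of Klk1b5, with 2253, 3989 and 3862 against 66357, 90897 and 82480 (log2 fold change 4.57, SE 0.32, adjusted p = 4e-07).

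Klk1, the tissue kallikrein itself and the last gene of the cluster, went the other way. It had 224354, 426661 and 387223 normalised counts in WTF and 166774, 178208 and 161016 in WTM, so that the lowest female stood above the highest male (log2 fold change -1.04, SE 0.28, adjusted p = 0.011). With library totals in place of TMM its log2 fold change was -0.12 and the call was lost, whereas the 16 other members kept their call and direction. Its start lies 274.7 kb after that of Klk1b8, and that of Klk1b5, the nearest member, lies at 265.3 kb. Per kilobase covered by any annotated exon of a gene, Klk1 was the highest of the 17 genes in WTF (mean 301989 normalised counts per kb, with Klk1b26 next at 24843). In WTM the order began with Klk1b26 (1044086) and Klk1b9 (718713), and Ren1 was lowest at 1282. The place of Egf depends on the length used, since its exons together cover 12225 bases and its longest transcript has 5711.

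**Figure D2:**
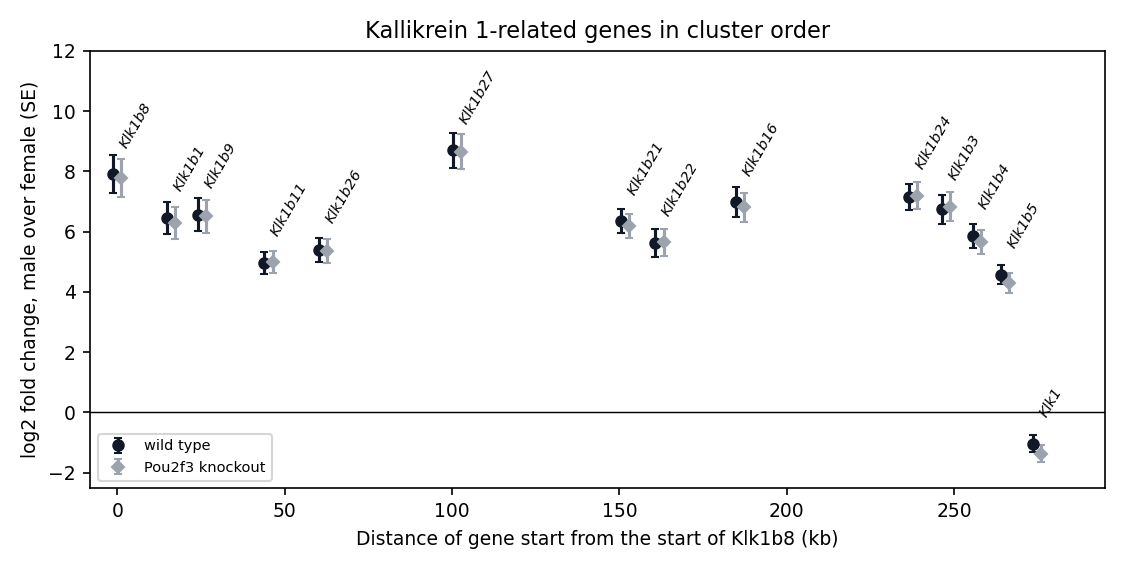
Log2 fold change of males over females (points, bars are SE) for the 14 kallikrein 1-related genes, placed by the distance of their starts from that of Klk1b8 in kb, in wild type (black) and in Pou2f3 knockout mice (grey). The 13 genes from Klk1b8 to Klk1b5 lie between 4.57 and 8.69 in wild type, and Klk1, at 274.7 kb, lies at -1.04.

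These genes are alike in sequence. Of the 100-base windows of the longest transcript, at most 6.08% (Klk1, shared mostly with Klk1b5) also occurred in a transcript of another gene, so that a small share of the counts may have been split between members. The sequences before the start codons were alike as well. The 150 bases that end 50 bases before the start codon held TTTAAA, an AT-rich motif that reads the same on both strands, in 14 of 14 genes, at 68 or 69 bases before the start codon. Their identity to the stretch of Klk1b27 was 82.2% for Klk1 and 74.5% to 90.8% for the 12 others. The 250 bases before the annotated starts are shown for 2 male-higher genes, Klk1b27 (chr7:43701464-43701713) and Egf (chr3:129549094-129549343, minus strand), and for 2 female-higher genes, Klk1 (chr7:43874534-43874783) and Mucl2 (chr15:103929579-103929828, minus strand), to let the windows of opposite direction be compared. They were read from GRCm39 at the canonical starts of Gencode M39, and capitals mark TTTAAA and the androgen receptor half-site AGAACA or its reverse complement TGTTCT.
Klk1b27: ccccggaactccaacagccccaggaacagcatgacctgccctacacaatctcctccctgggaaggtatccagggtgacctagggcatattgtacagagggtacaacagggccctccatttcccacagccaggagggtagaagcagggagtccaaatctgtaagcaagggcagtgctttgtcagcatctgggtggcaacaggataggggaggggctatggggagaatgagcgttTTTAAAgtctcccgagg
Egf: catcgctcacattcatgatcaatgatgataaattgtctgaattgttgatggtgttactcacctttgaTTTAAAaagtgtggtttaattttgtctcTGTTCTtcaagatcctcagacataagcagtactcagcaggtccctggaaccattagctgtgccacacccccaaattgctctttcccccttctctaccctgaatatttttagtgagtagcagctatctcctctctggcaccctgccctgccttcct
Klk1: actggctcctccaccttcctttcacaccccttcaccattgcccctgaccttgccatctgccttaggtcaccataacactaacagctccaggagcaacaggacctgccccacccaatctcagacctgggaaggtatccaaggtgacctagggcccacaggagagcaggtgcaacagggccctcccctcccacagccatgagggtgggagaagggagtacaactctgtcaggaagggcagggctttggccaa
Mucl2: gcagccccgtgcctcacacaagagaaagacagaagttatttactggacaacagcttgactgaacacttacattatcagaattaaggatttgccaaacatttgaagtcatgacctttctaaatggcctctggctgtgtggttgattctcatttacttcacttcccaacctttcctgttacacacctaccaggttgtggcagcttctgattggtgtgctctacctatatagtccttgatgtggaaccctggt
Egf carries the half-site, 155 bases before its start. Over the 17 GCT products, 3 windows held the half-site on either strand (17.6%), beside 5 of the 18 windows of acinar genes (27.8%) and 14.3% of the 20621 windows of autosomal protein-coding genes. TTTAAA was in 9 windows of GCT products (52.9%), 1 of acinar genes (5.56%) and 12% of all. An exact match to the full androgen response element, that is, 2 inverted half-sites 3 bases apart, was in 0 of these 20621 windows. Looser matches were not searched, and an exact match of this length is rare, so the search cannot show that elements are absent. The window of Klk1 ends before its TTTAAA, because its annotated start lies further from the start codon (119 bases) than that of Klk1b27 (51 bases). A match is a description of letters only.

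Kallikrein genes outside the glandular cluster were nearly silent. Of 12 listed, 11 did not pass the low-count filter. Klk15 passed with 2, 3 and 2 normalised counts in WTF and 8, 13 and 20 in WTM, a difference of at least 3.51-fold when the female libraries are set to 3 counts each (adjusted p = 0.0083). Its call was lost with limma on the deposited normalised counts. With at least 10 counts required in all libraries it was not tested.

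Of 20 acinar products listed, 18 passed the filter, 9 were higher in females, 0 were higher in males and 9 were not called, beside 15.7% female-higher and 20.6% male-higher of all autosomal genes. The median log2 fold change was -0.45. Without WTM replicate 3 the median was -1.06, with a replicate block -1.09, and with at least 10 counts required in all libraries -1.04. Without the count filter, or with the wild-type libraries alone, 2 acinar genes were called higher in males. Mucl2 (ENSMUSG00000036925.9, chromosome 15, 103926121 to 103929578), a mucin-like secretory protein, was the protein-coding gene with the highest level among those higher in females. It had 18951354, 22442780 and 31062221 normalised counts in WTF and 5283255, 7239215 and 4348514 in WTM, without overlap. The log2 fold change was -2.10 (SE 0.27, 4.29-fold, adjusted p = 6.3e-05). On the deposited normalised counts the same difference was -1.62 and was not called by limma (adjusted p = 0.15). Mucl2 alone took 24.9% to 33.6% of the counts of a female library and 10.2% to 13.3% of those of a male library.

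The secretory genes Prol1, Car6 and Pip followed. Prol1, which encodes a proline-rich lacrimal and saliva protein, had 2280822, 2206315 and 2461090 normalised counts in WTF and 494286, 760733 and 404279 in WTM (log2 fold change -2.07, SE 0.23, adjusted p = 1.9e-05). Car6, the secreted carbonic anhydrase, differed by -1.53 (SE 0.24, adjusted p = 0.00029). Pip, the prolactin-induced protein, differed by -1.27 (SE 0.24, adjusted p = 0.001). Among genes of acinar fluid secretion, the water channel Aqp5 was lower in males by a log2 fold change of -1.18 (SE 0.17) and the chloride importer Slc12a2 by -1.13 (SE 0.24). Bhlha15, the transcription factor of secretory cells also called Mist1, had 17082, 19881 and 18361 against 9563, 8430 and 8860 (log2 fold change -1.04, SE 0.16, adjusted p = 0.00029). Lpo, the saliva peroxidase (-0.85, SE 0.20), and Chrm3, the muscarinic receptor of acinar cells (-0.46, SE 0.14), were called as well. The call of Chrm3 was lost without WTM replicate 2 (adjusted p = 0.066). With library totals in place of TMM, 3 of the 9 calls remained, those of Mucl2, Prol1 and Car6, 3 other acinar genes were called higher in males, the median was 0.46, and Lpo and Chrm3 changed sign (0.04 and 0.45).

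**Figure D3:**
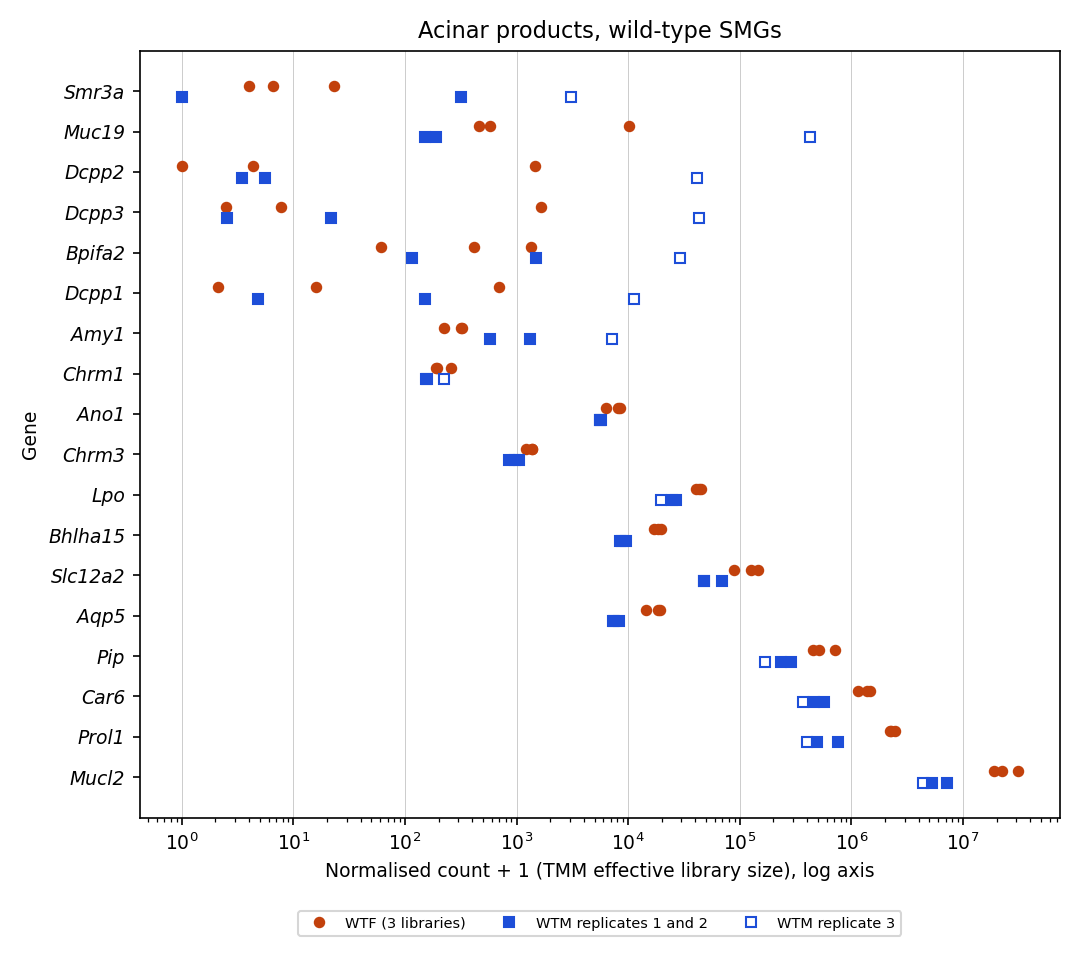
Normalised counts (plus 1, log axis) of the 18 acinar genes tested in the 3 WTF libraries (circles) and the 3 WTM libraries (squares, replicate 3 open). The 9 genes from Mucl2 to Chrm3 were called and have the males to the left, and WTM replicate 3 stands furthest to the right for the 7 genes from Amy1 to Smr3a.

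The other 9 acinar members were not called. Ano1, the calcium-activated chloride channel, had 6315, 8111 and 8440 normalised counts in WTF and 5567, 5639 and 5674 in WTM, without overlap but with an adjusted p of 0.088. It was called as higher in females with upper-quartile factors (adjusted p = 0.037), with the wild-type libraries alone (0.027), with DESeq2 (0.029) and without WTF replicate 1 (0.030), and with library totals its log2 fold change was 0.47. For Muc19, Dcpp1, Dcpp2 and Dcpp3 the log2 fold changes of 5.27, 4.0, 4.84 and 4.72 rested on WTM replicate 3, and without it they became -4.45, -1.62, -7.03 and -5.65. Amy1, the salivary amylase, had 224, 320 and 319 in WTF and 577, 1316 and 7186 in WTM (adjusted p = 0.073). The 9 calls of the list were all kept without WTM replicate 3.

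Smgc, which encodes a secreted protein of the immature gland and shares its start with Muc19, was singled out after its values were seen. It had 23925, 193568 and 210638 normalised counts in WTF and 1, 1 and 1178 in WTM, where the third value is that of the library rich in Muc19 (log2 fold change -8.50, SE 1.91, adjusted p = 0.0038). In knockout mice the values were 65146, 91594 and 55597 in females and 13.1, 0.937 and 3.63 in males, from the exons of Smgc as annotated.

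Of 39 carriers of pheromones and odorants listed, 12 passed the filter, 6 were higher in females and 2 in males, beside 15.7% and 20.6% of all genes. Both male-higher calls were lost without WTM replicate 3 and without each of the WTF replicates. The secretoglobins Scgb2b27, Scgb1b27 and Scgb2b26, subunits of androgen-binding protein in mouse saliva, were among the 8 female-higher genes with the highest level. Scgb2b27 had 1737319, 2264466 and 2804061 normalised counts in WTF and 582751, 790087 and 468497 in WTM (log2 fold change -1.89, SE 0.24, adjusted p = 5e-05). Scgb2b26 differed by -2.38 (SE 0.25), Scgb1b27 by -1.81 (SE 0.25) and Scgb2b24, at a far lower level, by -3.54 (SE 0.38). Mup5, a major urinary protein, had 37927, 31368 and 39955 in WTF and 3054, 5330 and 2268 in WTM (log2 fold change -3.36, SE 0.27, adjusted p = 1.3e-06). Mup4 had counts of 0 in WTF and 20, 17 and 194 normalised counts in WTM, where the highest value is that of replicate 3. Its adjusted p was 0.11 without that library and 0.069 to 0.072 without a WTF replicate. The gland peptide Esp8 was lower in males (-1.61, SE 0.29).

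Genes listed for ion transport in the ducts were mixed. Of 15 tested, 7 were higher in males and 3 in females (12 and 0 with library totals), beside 20.6% and 15.7% of all genes. The 3 subunits of the epithelial sodium channel, by which ducts take sodium back from saliva, were all higher in males. Scnn1b had 1511, 1806 and 1433 normalised counts in WTF and 5887, 7778 and 6765 in WTM (log2 fold change 2.10, SE 0.15, adjusted p = 4.4e-07), Scnn1g differed by 1.89 (SE 0.17) and Scnn1a by 1.32 (SE 0.15). The chloride channel gene Cftr had 467, 848 and 758 against 3221, 2498 and 2918 (log2 fold change 2.06, SE 0.28, adjusted p = 9.1e-05). The iodide transporter Slc5a5 (2.58, SE 0.25) was higher in males too. The potassium channel Kcnn4 was higher in females, with 10032, 12821 and 12000 against 4542, 5169 and 4673 (log2 fold change -1.28, SE 0.15, adjusted p = 3.5e-05). So was the carbonic anhydrase Car2 (-0.85, SE 0.19), which moved to 0.04 with library totals. Kcnn4 is not particular to ducts and also serves acinar cells. Which cells its counts came from cannot be told in bulk tissue.

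**Figure D4:**
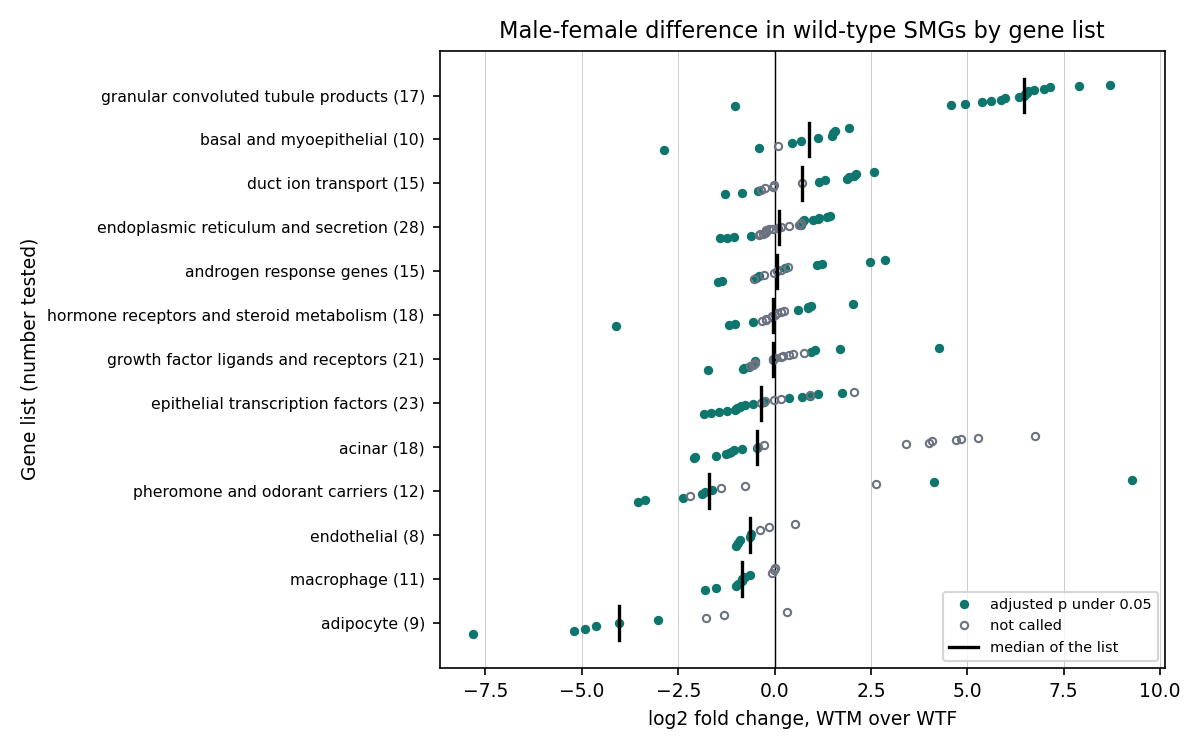
Log2 fold change of WTM over WTF for each tested member of 13 gene lists, filled where the adjusted p was under 0.05, with a black bar at the list's median and the number tested in parentheses. GCT products stand to the right with a median of 6.46, and the single point on the left of that row is Klk1.

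Androgen receptor is encoded on the X chromosome and is not described. Among 18 autosomal genes of other hormone receptors and steroid metabolism that were tested, 5 were higher in males and 4 in females (12 and 1 with library totals), beside 20.6% and 15.7% of all genes. The growth hormone receptor Ghr had 3286, 3879 and 4090 normalised counts in WTF and 5839, 7241 and 7482 in WTM (log2 fold change 0.87, SE 0.13, adjusted p = 0.00025). Hsd11b1, which regenerates active glucocorticoid, differed by 2.02 (SE 0.39) and the mineralocorticoid receptor Nr3c2 by 0.62 (SE 0.14). The prolactin receptor Prlr was higher in females, with 4044, 4832 and 5065 against 1709, 2354 and 2058 (log2 fold change -1.19, SE 0.13, adjusted p = 1.5e-05). The progesterone-inactivating enzyme Akr1c18 had 35, 54 and 29 against 3, 1 and 2 (log2 fold change -4.13, SE 0.56, adjusted p = 9e-05).

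Genes that respond to androgen in other tissues, chiefly the prostate, were mixed. Of 15 tested, 5 were higher in males, 4 were higher in females, and the median log2 fold change was 0.07, beside 20.6% and 15.7% of all autosomal genes. The male-higher count was 3 with RLE or upper-quartile factors, with DESeq2, with the wild-type libraries alone, and without WTF replicate 2 or 3. With library totals 12 were higher in males and 1 in females. Fkbp5, a chaperone of steroid receptors, had 1227, 1249 and 980 normalised counts in WTF and 6209, 7740 and 5126 in WTM (log2 fold change 2.46, SE 0.22, adjusted p = 3e-06). Sgk1, a kinase that also responds to glucocorticoid and mineralocorticoid, had 1920, 1615 and 1942 against 10949, 17859 and 11221 (log2 fold change 2.87, SE 0.23, adjusted p = 1.1e-06). The membrane protease Tmprss2 differed by 1.22 (SE 0.12). In the other direction, Homer2 differed by -1.46 (SE 0.13), Ndrg1 by -1.37 (SE 0.29) and Odc1, the first enzyme of polyamine synthesis, by -0.41 (SE 0.11). With library totals Odc1 changed sign (0.47).

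Of 21 receptors and other ligands of the growth factor families, 4 were higher in males, 5 were higher in females and 12 were not called (12 higher in males and 1 in females with library totals). The shares of all genes were 20.6% and 15.7%. Ngfr, a neurotrophin receptor, had 488, 624 and 547 normalised counts in WTF and 7796, 12397 and 11843 in WTM (log2 fold change 4.27, SE 0.28, adjusted p = 2.4e-07). Fgf1 was 3.23-fold higher in males (log2 fold change 1.69, SE 0.21) and Nrg2 2.06-fold (1.04, SE 0.28). The receptors Erbb4 and Egfr were higher in females, Erbb4 with 1442, 1612 and 1688 against 480, 520 and 437 (log2 fold change -1.72, SE 0.19, adjusted p = 1.4e-05) and Egfr by -0.50 (SE 0.12). The ligands Tgfa (-0.78, SE 0.21) and Fgf7 (-0.82, SE 0.21) were higher in females as well. With library totals the values of Egfr, Tgfa and Fgf7 changed sign (0.40, 0.11 and 0.06).

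Of 23 epithelial transcription factors tested, 5 were higher in males and 12 in females, and the shares of all genes were 20.6% and 15.7%. With library totals 8 of the 17 calls were kept, and the counts were 11 and 3 with a median log2 fold change of 0.57, against -0.36. Tfcp2l1, a factor of salt-transporting ducts, had 32957, 35052 and 28082 normalised counts in WTF and 112840, 93455 and 115297 in WTM (log2 fold change 1.74, SE 0.21, adjusted p = 3.3e-05). Foxi1, a factor of ionocytes, differed by 1.12 (SE 0.15), Elf3 by 0.93 (SE 0.17) and Ehf by 0.71 (SE 0.13). The secretory cell factors Spdef and Creb3l1 were higher in females, Spdef with 2206, 2385 and 2494 against 674, 633 and 968 (log2 fold change -1.64, SE 0.18, adjusted p = 1.4e-05) and Creb3l1 by -1.45 (SE 0.16). Elf5 (-1.24, SE 0.13), Xbp1 (-1.04, SE 0.15), Sox9 (-1.0, SE 0.15), Etv1 (-0.97, SE 0.13) and Sox10 (-0.90, SE 0.16) were in the same direction, and so was Gata3 at a low level (-1.84, SE 0.38). With library totals Sox10 changed sign (0.03).

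Genes of the endoplasmic reticulum and secretion had a median log2 fold change of 0.12, with 10 of 28 higher in males and 4 in females, beside 20.6% and 15.7% of all genes. The counts were 10 and 8 with upper-quartile factors, 10 and 7 with DESeq2, and 8 and 7 with limma. Without WTM replicate 2 the counts were 6 and 8 with a median of -0.07. Without WTF replicate 1 they were 6 and 5, without WTF replicate 2 they were 6 and 3, and with library totals 24 and 1. The male-higher members were Hsp90b1, Pdia4, Pdia6, Dnajb11, Creld2, Manf, Calr, Sel1l, Atf6, a stress-sensing transcription factor, and Vamp8, a protein of vesicle fusion. Sel1l, a factor of protein quality control, had 13508, 12526 and 12521 normalised counts in WTF and 26767, 43726 and 28809 in WTM (log2 fold change 1.36, SE 0.21, adjusted p = 0.00029). Pdia4 differed by 1.45 (SE 0.28), Pdia6 by 1.14 (SE 0.21) and Hsp90b1 by 1.01 (SE 0.23). The female-higher members included 2 small GTPases of secretory granules, Rab27b with 3621, 3731 and 4577 against 1345, 1591 and 1506 (log2 fold change -1.42, SE 0.14, adjusted p = 8.3e-06) and Rab3d by -1.22 (SE 0.13).

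Genes of other cell types were called as well. Of 10 basal and myoepithelial genes tested, 7 were higher in males and 2 in females (9 and 1 with library totals), beside 20.6% and 15.7% of all genes. The counts were 7 and 1 without WTF replicate 2, without WTF replicate 3, and without each of the WTM replicates. The contractile genes of myoepithelial and smooth muscle cells were all higher in males, with Acta2 at 3178, 4177 and 4540 against 9770, 12156 and 11986 (log2 fold change 1.51, SE 0.18, adjusted p = 2.6e-05) and Tagln, Cnn1, Myh11 and Mylk between 1.12 and 1.93. Krt14 differed by 0.46 (SE 0.12), and Krt15 was higher in females at a low level (30, 109 and 65 against 9, 13 and 5). Endothelial genes were lower in males for 5 of 8 and higher for 0, and with library totals 0 of these calls were kept, 1 gene was higher in males and the median was 0.27. Macrophage genes were lower in males for 8 of 11, with a median log2 fold change of -0.84, and without WTF replicate 1 the values were 2 of 11 and -0.55. The count was also 2 without WTM replicate 1, 4 without WTM replicate 3 and 5 without WTF replicate 3, and with library totals 0 were lower and 2 higher in males. Fat cell genes were lower in males for 6 of 9, with a median of -4.03, and without WTF replicate 3 for 0 of 9, with a median of -1.36. Leaving out WTM replicate 1, 2 or 3 left 2, 3 and 3 of these calls. The summed normalised counts of the macrophage list were 8327 to 21624 in WTF and 6784 to 8096 in WTM. Of 14 lymphocyte and plasma cell genes, 8 did not pass the filter, including Cd3e, Cd79a and Ms4a1. Of the 6 tested, 1 was higher in females, and without WTF replicate 2 there were 3 higher in males and 2 in females. That single call was lost without WTF replicate 1, WTM replicate 1 or WTM replicate 3, with limma and with library totals. Whether these cells took part in any difference above was not tested.

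Protein-coding genes above an absolute log2 fold change of 1 and without overlap were ranked by adjusted p. The leading genes were outside these lists. The 10 male-higher protein-coding genes with the smallest values were Slco3a1, Sult1e1, Lrp3, Camk2d, Galc, Katnip, Atp13a5, Serpinb6a, Fam83e and Wwox. Slco3a1, an organic anion transporter, had 160, 182 and 161 normalised counts in WTF and 1823, 2229 and 1768 in WTM (log2 fold change 3.53, SE 0.12, adjusted p = 1.9e-09). Sult1e1, the sulfotransferase that inactivates estrogen, had 1, 1 and 2 against 1250, 1094 and 1354, at least 314-fold higher in males when the female libraries are set to 3 counts each. Galc, the lysosomal galactosylceramidase, differed by 3.05 (SE 0.13), Serpinb6a, an intracellular protease inhibitor, by 3.43 (SE 0.16) and Camk2d, a calcium-dependent kinase, by 3.59 (SE 0.14). The other 5 lay between 2.96 and 3.38. On the female side the genes were A830018L16Rik, Slc37a2, Ppm1k, Kctd14, Mob3b, Ttpa, B4galt1, Slc2a13, Slc1a3 and Gdf5. A830018L16Rik had 1475, 1646 and 1603 in WTF and 72, 52 and 56 in WTM (log2 fold change -4.71, SE 0.16, adjusted p = 1.7e-09). The glutamate transporter Slc1a3 differed by -2.05 (SE 0.12), the alpha-tocopherol carrier Ttpa by -2.43 (SE 0.14) and the growth factor Gdf5 by -2.41 (SE 0.15). Replicates of a sex lay close together for all of these genes, which is how a ranking by adjusted p selects them.

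Ranked by level, the 8 male-higher genes were Egf, Klk1b26, Crisp3, Klk1b9, Klk1b16, Klk1b22, Klk1b11 and 2310057J18Rik. Crisp3, a cysteine-rich secretory protein, had 23259, 44977 and 41720 normalised counts in WTF and 869018, 1864456 and 1127744 in WTM (log2 fold change 5.13, SE 0.45, adjusted p = 2.2e-06). 2310057J18Rik had 5104, 5279 and 6400 against 213034, 290849 and 187816 (log2 fold change 5.37, SE 0.33, adjusted p = 1.6e-07). The 8 female-higher genes were Rn7s1, Mucl2, Rn7s6, Prol1, Scgb2b27, Scgb1b27, Car6 and Scgb2b26. Rn7s1 and Rn7s6 are noncoding RNAs of the signal recognition particle, and the call of Rn7s6 was lost without WTM replicate 1 (adjusted p = 0.070). Rn7s1 had 26245504, 28276897 and 24915196 in WTF and 7056544, 11901285 and 5026731 in WTM (log2 fold change -1.73, SE 0.29, adjusted p = 0.00057). In the deposited normalised counts its order was the opposite, with 3765179 to 21329937 in WTF and 26196344 to 49455733 in WTM (2.28 in limma, adjusted p = 0.17). Every 100-base window of Rn7s1 (100%) also occurred in another annotated transcript, so the call of Rn7s1 is uncertain.

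The knockout mice gave a second male-female contrast, with other libraries on both sides but with scaling and spread estimated over all 12. In them 43.6% of the autosomal genes were called, 23.3% higher in males and 20.3% higher in females, and 7.53% were higher in males and 9.62% in females with an absolute log2 fold change above 1. These last shares are 1300 and 1661 genes, and with library totals the counts were 2124 and 812. All 17 GCT products were called in the same direction in both genotypes (3106 of the 6276 autosomal genes called in wild type were), with a knockout median of 6.18, and for 0 of them did the male-female difference itself differ between genotypes at an adjusted p under 0.05 (25.8% of all autosomal genes did; edgeR interaction contrast). Egf had 40328, 53295 and 22978 normalised counts in KOF and 2686399, 2977696 and 3529173 in KOM (log2 fold change 6.30, adjusted p = 2.5e-07). Of the 9 acinar genes called, 8 were called in the same direction in knockout mice, and Mucl2 differed there by -1.39 (adjusted p = 0.0011). For 0 of the 18 acinar genes was the interaction called. Over all autosomal genes the interaction was called for 4455, and for 2312 without WTM replicate 1, 2806 without WTM replicate 3 and 2888 without KOM replicate 3. A p above the threshold does not show that the differences were equal.

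For some members the male-female difference did differ between wild-type and knockout mice. The study names these mice as separate strains and describes no littermate controls, so genotype and mouse line cannot be told apart. Mup5 had 4828, 5039 and 3729 normalised counts in KOF and 4287, 4348 and 3442 in KOM, values that overlapped (log2 fold change -0.17, SE 0.25, beside -3.36 in wild type; interaction -3.19, adjusted p = 0.0025). Slc4a11, a membrane transporter of the bicarbonate transporter family, was higher in males in wild type (1.14) and higher in females in knockout (-0.42), an interaction of 1.56 (adjusted p = 0.0027). For 17 of 28 genes of the endoplasmic reticulum and secretion list the interaction was called, beside 25.8% of all autosomal genes. The list's median was 0.12 in wild type and 1.04 in knockout. For 8 of 9 fat cell genes and 7 of 11 macrophage genes the interaction was called as well. Of their wild-type calls, 0 recurred in the same direction in knockout mice. In knockout, 4 fat cell genes were higher in males and 1 in females, with a median of 3.29 against -4.03 in wild type. For macrophage genes the counts were 4 and 0, with a median of 0.52 against -0.84. In wild type, 0 of 9 fat cell genes were called without WTF replicate 3, and 2 of 11 macrophage genes without WTF replicate 1. In knockout, the summed normalised counts of the fat cell list were 2003, 1710 and 2037 in KOF and 936, 3087 and 1652 in KOM. Only KOM replicate 2 stood above the knockout females in this sum.

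**Figure D5:**
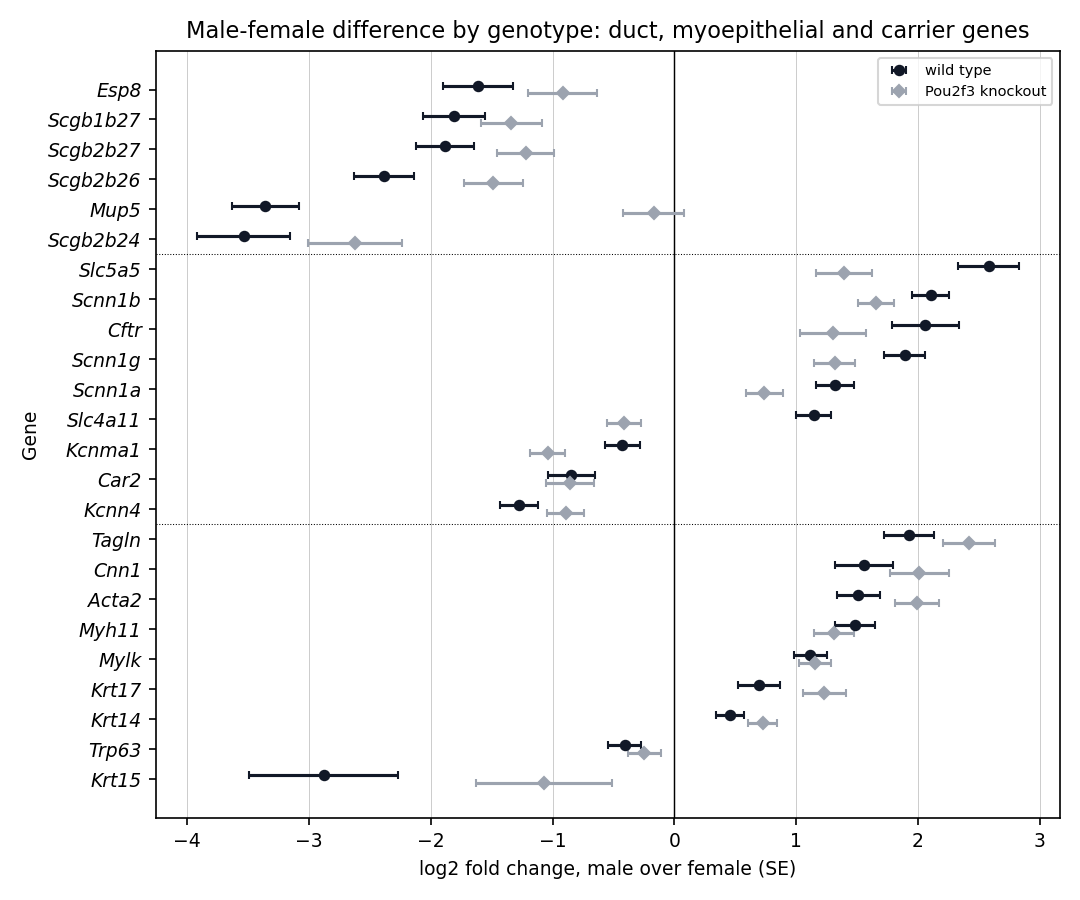
Log2 fold change of males over females (points, bars are SE) in wild type (black) and knockout (grey) for genes called in wild type in 3 lists, from the top pheromone and odorant carriers (without Mup4 and Mup6, which were near 0 counts in females), duct ion transport, and basal and myoepithelial genes. Mup5 lies at -3.36 in wild type and -0.17 in knockout, and Slc4a11 lies on opposite sides of 0.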

How the data were processed

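Bulk RNA-sequencing of SMGs gave 12 libraries, of which the 3 WTM and 3 WTF libraries are described. Per the study's methods and its processing notes, the authors assigned reads to Gencode transcripts of GRCm39 with Salmon 1.10.1 and deposited estimated counts per gene. The authors also deposited normalised counts, a signal whose scaling differs from gene to gene within 1 library. It served for 1 alternative.

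Estimated counts were rounded. With edgeR 4.0.16 (R 4.3.3), filterByExpr kept 17893 genes, library sizes were adjusted by TMM, and all 12 libraries entered 1 quasi-likelihood model of the 4 groups, which share the estimate of spread. Contrasts were WTM against WTF, KOM against KOF, and their difference. Benjamini-Hochberg adjustment ran over all tested genes, before sex-chromosome genes were set aside. Identifiers were matched to Gencode M39 for 55563 of 56065 genes. Where a sex had at most 3 counts in each library, the fold is a lower bound with 3 counts per library. A count of 3 is 0.0442 to 0.0581 CPM in the wild-type libraries, for counting error only. The fit was also run on simulated data with means and spread taken from these libraries, and the outcome is not given here.

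Named genes were the GCT and acinar markers, members of the lists, and, among genes past an adjusted p of 0.05 and an absolute log2 fold change of 1 without overlap, the 10 protein-coding genes a direction with the smallest adjusted p and the 8 genes a direction with the highest level. The members and lists were chosen with earlier results of these data known. Lists were counted, not tested as sets, and some members are not reported here. Alternatives were RLE and upper-quartile factors, leaving the 20 most abundant genes out of library sizes, other count filters, wild-type libraries alone, DESeq2 1.42.0, limma 3.58.1 on log2 of the deposited normalised counts plus 1, a replicate block, each library left out, and, added after the data were seen, library totals without TMM.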

Additional observations from a re-analysis of the deposited data

Results flagged for a closer look

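The male-female difference of the 27 genes given here differed between wild-type and knockout mice in the edgeR interaction contrast (adjusted p under 0.05, Benjamini-Hochberg), as did 25.8% of all autosomal genes. Each value here is the log2 fold change in wild type minus that in knockout. Of these genes, 13 were chosen for small adjusted p in wild type, which favours a large wild-type difference. The others are examples from the lists that were picked with their values known, and the interaction was called for further list members that are not given singly, such as those among the 17 of 28 genes of the endoplasmic reticulum and secretion. The interaction was 0.68 for Lrp3, 0.93 for Wwox, 0.52 for Slco3a1, 1.00 for Katnip, 1.21 for Atp13a5 and 1.08 for Fam83e, all higher in males in both genotypes. Among those higher in females in both it was -0.89 for Slc1a3, -0.51 for B4galt1, -0.66 for Slc37a2, -0.66 for Slc2a13, -0.48 for Ppm1k, -1.23 for Gdf5 and -0.51 for Kctd14.

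Of the duct transport genes, Slc5a5 gave 1.19 and Slc4a11 gave 1.56. For genes of hormones and androgen response the values were -3.44 for Akr1c18, 0.92 for Nr3c2, -0.52 for Hsd17b4, 0.64 for Tmprss2 and -1.13 for Odc1. Odc1 was lower in males in wild type (-0.41) and 0.72 in knockout. For Mup5 the interaction was -3.19, and for Mup4 the fitted value was 10.79. The counts of Mup4 were 0 in WTF, so this value depends on the prior count and gives no size. Among transcription factors and secretory genes it was -0.72 for Xbp1, -1.25 for Pdia4, -0.61 for Rab3d, -0.48 for Atf6 and -0.54 for Vamp8. Groups of 3 libraries are too small for a test of single outlying values, and the libraries that stood apart above are described without such a test.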

How the results depend on the processing

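Over 124 genes and 1962 values from the alternatives, 1909 kept direction and side of the threshold, and 19 changed sign, 11 of them with library totals in place of TMM. Library totals, chosen after the data were seen, gave 7463 male-higher and 138 female-higher genes above a log2 fold change of 1 in wild type, 2124 and 812 in knockout, and 3 acinar genes higher in females and 3 higher in males. They turned Lpo to 0.039, Ano1 to 0.47, Chrm1 to 0.64, Chrm3 to 0.45, Car2 to 0.036, Nr3c1 to 0.32, Odc1 to 0.47, Tgfa to 0.11, Fgf7 to 0.058, Egfr to 0.40, and Sox10 to 0.027. A minimum of 10 counts in every library, which tests fewer genes, gave 999 male-higher genes in wild type and 1086 female-higher genes in knockout. Leaving out 1 library gave 1283 to 1730 male-higher and 716 to 997 female-higher genes in wild type, 1192 to 1537 and 1167 to 1583 in knockout, 16 male-higher GCT products each time, and 8 to 10 acinar genes higher in females. The interaction was called for 2312 to 5369 genes, the lowest without WTM replicate 1, beside 2806 without WTM replicate 3 and 2888 without KOM replicate 3. Leaving out 1 library gave -1.62 to 8.99 for Dcpp1, -7.03 to 12.72 for Dcpp2, -5.65 to 11.60 for Dcpp3 and -4.45 to 8.08 for Muc19, lowest without WTM replicate 3 and highest without WTF replicate 2. On the deposited normalised counts, limma gave 2.28 for Rn7s1, and the cause was not tested. The labels do not say that replicate numbers pair mice. Deviations from the group mean in same-numbered wild-type libraries had correlations of 0.266, -0.065 and -0.007. Libraries of different number were not compared, so these values do not settle whether samples were paired. A replicate block gave 1508 male-higher and 857 female-higher genes, with -2.80 for Dcpp2, -2.23 for Dcpp3 and -2.61 for Muc19. Depth limits genes with few counts, such as Klk15 and Mup4.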

Other observations

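Of 17 circadian clock genes, 6 were higher in females and 0 in males (median log2 fold change -0.32), beside 15.7% and 20.6% of all autosomal genes. With library totals in place of TMM 0 of these 6 calls were kept, and 11 clock genes were higher in males (median 0.59). Of 11 immediate early genes, 2 were higher in males and 1 in females (median 0.29), against 7 and 0 with library totals (median 1.16). Fibroblast genes were higher in males for 2 of 7, for 6 with library totals and for 1 with RLE or upper-quartile factors, limma or a replicate block. The 3 blood genes tested were not called.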
